A study of Mus musculus with 4 samples.

Results

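The genes described here encode centrosomal proteins (Cep), subunits of the intraflagellar transport trains (Ift) and Bardet-Biedl syndrome proteins (Bbs). They were chosen by symbol, as every protein-coding gene whose name is Cep, Ift or Bbs followed by a number and which was listed for both constructs. This gave 55 of the 11260 protein-coding genes in both tables (13478 genes of all kinds): 34 Cep, 14 Ift and 7 Bbs genes. The measurements came from RNA immunoprecipitation sequencing in mouse pancreatic cancer-associated fibroblasts (CAFs, line 15376CAFs), in which RNA recovered with an anti-Flag antibody (IP) was set against input RNA of the same cells. The groups were the mutant IP and mutant input, from cells overexpressing Flag-tagged Lin28b with a mutation that leaves it deficient in RNA binding (Lin28b-MU), and the wild-type IP and wild-type input, from cells that overexpressed the unmutated protein with the same tag (Lin28b-WT). All groups thus carry an overexpressed Flag-Lin28b, and the cells' own Lin28b is not described in the labels. Lin28b binds let-7 precursors, whose maturation it blocks, and a wide range of mRNAs. The comparisons ask which of these mRNAs were recovered above input with each construct, and how recovery differed when RNA binding was impaired.

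Each group was 1 library, so no difference has a replicate check and no test between groups was possible. Every value describes single libraries, and the depth of each is unknown because the deposited tables give levels and not counts. Levels are in FPKM (fragments scaled by gene length and library total), a unit read from the values. The log2 ratio is log2 of (IP level + 0.01) over (input level + 0.01). A gene is called higher or lower where that ratio is at least 2-fold in either direction. Both IPs had ratios below 0 for most genes: the median over the 11260 protein-coding genes was −0.49 in the mutant and −0.25 in the wild type. A ratio near 0 therefore lies above the middle of all genes. Of 10 fibroblast markers only 4 were listed in both tables, and Col1a1 stood at 0.404 FPKM in the mutant input and 0.722 in the wild-type input. The epithelial list had 4 of its 7 genes in both, among them the keratin Krt8 at 494 and 601 FPKM in the same inputs. Epcam, Cldn4 and Cldn7 were not listed in both. The fibroblast label is thus not borne out by all of its defining markers, although Vim was high. Absence from the listing does not show that a gene was unexpressed. In such bulk libraries fewer cells of a type and less RNA per cell cannot be told apart. None of 9 markers of multiciliated cells, Foxj1 among them, was listed in both tables, whereas all 6 proliferation markers were, with Mki67 at 170 FPKM in the mutant input and 171 in the wild-type input.

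The centrosome is the main microtubule-organising centre of animal cells. It is built from a pair of centrioles in a protein matrix, the pericentriolar material, and in resting cells the older centriole becomes the basal body of a primary cilium. Intraflagellar transport moves cargo along the cilium, with the IFT-B complex in trains towards the tip and the IFT-A complex in return, and the BBSome acts as an adaptor that carries membrane proteins out of the cilium. Many genes of this machinery are controlled by RFX transcription factors through a promoter element called the X-box.

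A minority of the promoters held a form of this element, which the choice of genes by name did not use. RefSeq promoter windows (GRCm38.p6, 250 bases before to 50 after the gene start) were matched for 46 of the 55 genes. The X-box form, GTNNCC and GGNAAC parted by 2 bases of any kind and searched on both strands, occurred in 8 of the 46 (17.4%), was missing from 38, and occurred in 1.92% of the 8988 protein-coding genes with a window. The shorter GTTGCC, which overlaps some of these matches, occurred in 15 of the 46 (32.6%) and in 14.6% of the 8988. A match is a run of letters and not evidence of binding. In total 12 forms were searched, after values were known. Of the other 10, with 0 to 32 matching members each, 8 had a greater and 2 a smaller share in these genes than in all promoters. Matches in some of the genes described below are shown with 8 bases on either side, read along the gene's strand, with the match in capitals.
Bbs7, chr3:36613489-36613518, minus strand: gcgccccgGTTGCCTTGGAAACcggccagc
Bbs4, chr9:59353464-59353493, minus strand: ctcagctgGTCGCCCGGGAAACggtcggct
Cep19, chr16:32099803-32099832, plus strand: agccttctGTTGCCTTGGGAACgatcctcg
Ift57, chr16:49699199-49699228, plus strand: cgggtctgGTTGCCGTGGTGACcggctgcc
Ift22, first match, chr5:136908079-136908108, plus strand: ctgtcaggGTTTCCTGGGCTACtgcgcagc
Ift22, second match, chr5:136908109-136908138, plus strand: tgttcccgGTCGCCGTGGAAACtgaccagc
The other genes with this form were Cep44, Cep83 and Cep112. No deposited peak overlapped a matched promoter window of the 46 genes. These windows lie mainly before the gene start, where few peaks of recovered RNA could fall, so the absence does not bear on recovery.

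As a set, these mRNAs stood close to their input level with both constructs, and a few subunits departed far from it. The median log2 ratio of the 55 genes was −0.10 in the mutant (range −2.57 to 1.50) and −0.08 in the wild type (range −1.70 to 1.20). In the mutant IP 3 genes were higher and 9 lower. The shares over all protein-coding genes were 5.71% higher and 32.5% lower. In the wild-type IP 2 were higher, with 6.85% over all protein-coding genes, and 4 lower, with 18.8%. A total of 41 of the 55 genes stayed within 2-fold of input in both, beside 5886 of the 11260 protein-coding genes. Relative to the median of all protein-coding genes, the medians of the 55 became 0.39 in the mutant and 0.17 in the wild type. The genes were long, with a median span of 40.9 kb against 23.3 kb for all protein-coding genes, and recovery moved with span across all genes (Spearman rho 0.54 in the mutant and 0.38 in the wild type over 11260 genes, which share the libraries and are not replicates). The part of span in the set's medians was not tested.

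**Figure D1:**
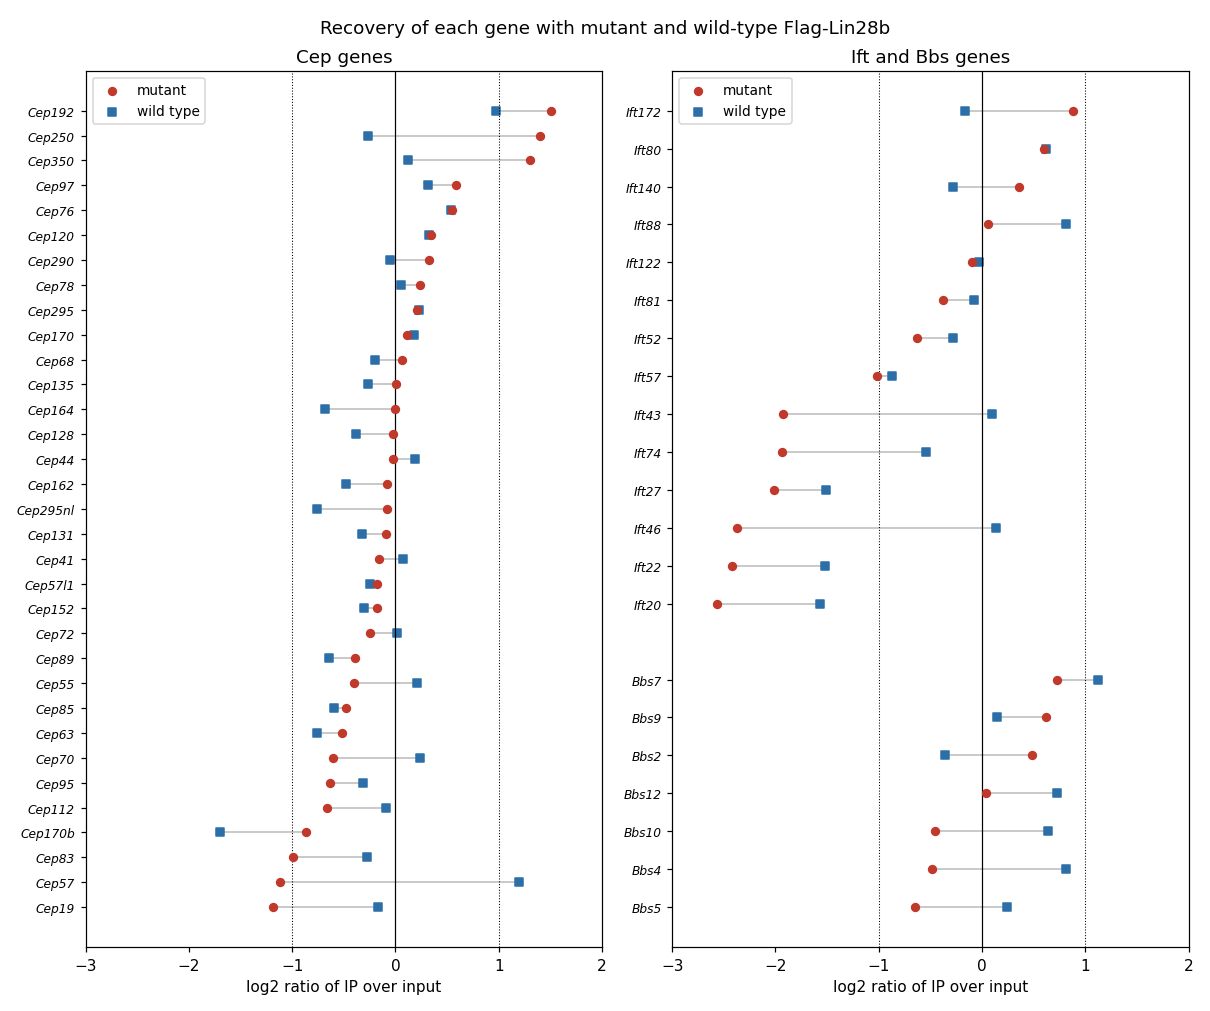
Log2 ratio of IP over input (horizontal axis) for 33 of the 34 Cep genes (left) and the 14 Ift and 7 Bbs genes (right), with the mutant as circles, the wild type as squares, and dotted lines at 2-fold; each point is 1 pair of libraries. Cep192, Cep250 and Cep350 lie beyond 2-fold in the mutant, 6 Ift genes lie below −1.9 in the mutant, and Cep57 lies beyond 2-fold in opposite directions.

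The 3 genes that were higher in the mutant IP were Cep192, Cep250 and Cep350, all encoding large coiled-coil or scaffold proteins of the centrosome. Cep192, a scaffold that gathers pericentriolar material and mitotic kinases, stood at 67.1 FPKM in mutant IP RNA and 23.6 in mutant input RNA, against 29.8 in wild-type IP RNA and 15.2 in wild-type input RNA. This is 2.84-fold above input with the mutant and 1.96-fold with the wild type. It was thus recovered above input with both constructs, and in the wild type it fell just short of the threshold. Cep250, which encodes the linker protein that holds the centrioles of a pair together, stood at 42.3 FPKM in mutant IP RNA and 16.1 in mutant input RNA, against 11.4 in wild-type IP RNA and 13.7 in wild-type input RNA. Its log2 ratio was 1.40 in the mutant and −0.26 in the wild type. Cep350, a centriolar protein that anchors microtubules, stood at 43.5 and 17.6 FPKM in mutant IP and input RNA, against 16.4 and 15.1 in wild-type IP and input RNA. Its log2 ratio was 1.30 in the mutant and 0.12 in the wild type. For all 3 genes the mutant IP held the highest level of the 4 libraries, and the inputs of the constructs lay closer together than the IPs did. The mutant input nevertheless stood above the wild-type input by 0.64 (log2) for Cep192 and by 0.23 for each of Cep250 and Cep350. With these 3 highest genes taken out, the median mutant ratio of the remaining 52 was −0.17, or 0.33 relative to all protein-coding genes.

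Genes of centriole assembly stood near input. The group of 9 included Cep152 and Cep63, partners in recruiting the duplication kinase Plk4, and Cep135, Cep120, Cep295, Cep44, Cep76 and Cep97. None was called higher or lower with the mutant (5.71% and 32.5% over all protein-coding genes) or with the wild type (6.85% and 18.8%), and the medians were 0.21 in the mutant and 0.19 in the wild type. Cep97, whose product caps the growing end of the centriole, had the highest mutant ratio of the 9, 0.59, with 2.02 FPKM in mutant IP RNA and 1.35 in mutant input RNA, and a wild-type ratio of 0.32. Cep63 had the lowest ratios, −0.52 in the mutant and −0.76 in the wild type. For 7 of the 9 the mutant ratio exceeded the wild-type ratio, as it did for 38.0% of all protein-coding genes.

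The genes of distal appendages and the transition zone, which dock the older centriole to the membrane and gate the cilium, were not called with either construct, beside the same shares over all protein-coding genes. For Cep83, Cep89, Cep162, Cep164 and Cep290 the medians were −0.08 in the mutant and −0.48 in the wild type, or 0.41 and −0.23 relative to all protein-coding genes. Cep83 came nearest to the threshold, with a mutant ratio of −0.99 and a wild-type ratio of −0.27. Cep164, a distal appendage protein needed for ciliogenesis, stood at 11.9 FPKM in mutant IP RNA and 11.9 in mutant input RNA, against 5.14 in wild-type IP RNA and 8.23 in wild-type input RNA. In 4 of the 5 genes the mutant ratio was above the wild-type ratio (38.0% over all protein-coding genes), and Cep83 was the exception. Cep131, a centriolar satellite gene, had ratios of −0.09 in the mutant and −0.32 in the wild type.

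Cep57 was the gene called lower with the mutant and higher with the wild type. Its product is a pericentriolar protein that helps to keep centrioles engaged. It stood at 14.1 FPKM in mutant IP RNA and 30.6 in mutant input RNA, against 45.1 in wild-type IP RNA and 19.7 in wild-type input RNA. The ratio was 2.17-fold below input in the mutant and 2.29-fold above input in the wild type. Relative to all protein-coding genes its mutant log2 ratio was −0.62, which no longer passes the threshold, so the combination rests on the uncentred ratios. Among all protein-coding genes 0.844% showed this combination. The opposite one, higher with the mutant and lower with the wild type, was shown by 0 of the 55 genes and 0.222% of all protein-coding genes. The wild-type IP held the highest and the mutant IP the lowest of the 4 levels. The inputs differed in the direction opposite to the IPs, with the mutant input higher by 0.64 (log2). Its paralogue Cep57l1 stood within 2-fold of input in both, at −0.18 in the mutant and −0.25 in the wild type.

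Of the remaining Cep genes, Cep19 and Cep170b passed the threshold. Cep19, whose product recruits transport complexes to the ciliary base, had a mutant ratio of −1.18, with 2.72 FPKM in IP RNA and 6.19 in input RNA, and a wild-type ratio of −0.17, with 3.82 and 4.30. Its call was lost relative to all protein-coding genes (−0.69) and with a pseudocount of 1 (−0.95). Cep170b, a paralogue of the subdistal appendage gene Cep170, stood at 26.4 and 48.0 FPKM in mutant IP and input RNA, against 14.1 and 45.9 in wild-type IP and input RNA. Its ratio was −0.86 in the mutant and −1.70 in the wild type, the lowest wild-type ratio of all 55 genes. The inputs of Cep170b were close to each other, while Cep170 itself stood near input, at 0.11 in the mutant and 0.18 in the wild type. Cep55, which encodes a protein of the final cut of cell division, was among the more abundant members at 33.2 FPKM in mutant IP RNA and 44.0 in mutant input RNA, and 50.0 in wild-type IP RNA and 43.4 in wild-type input RNA. Its ratios were −0.41 and 0.21. Cep295nl, a short gene inside the span of Timp2 on the same strand, had ratios of −0.08 and −0.76, and reads of the 2 genes may not be separable.

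**Figure D2:**
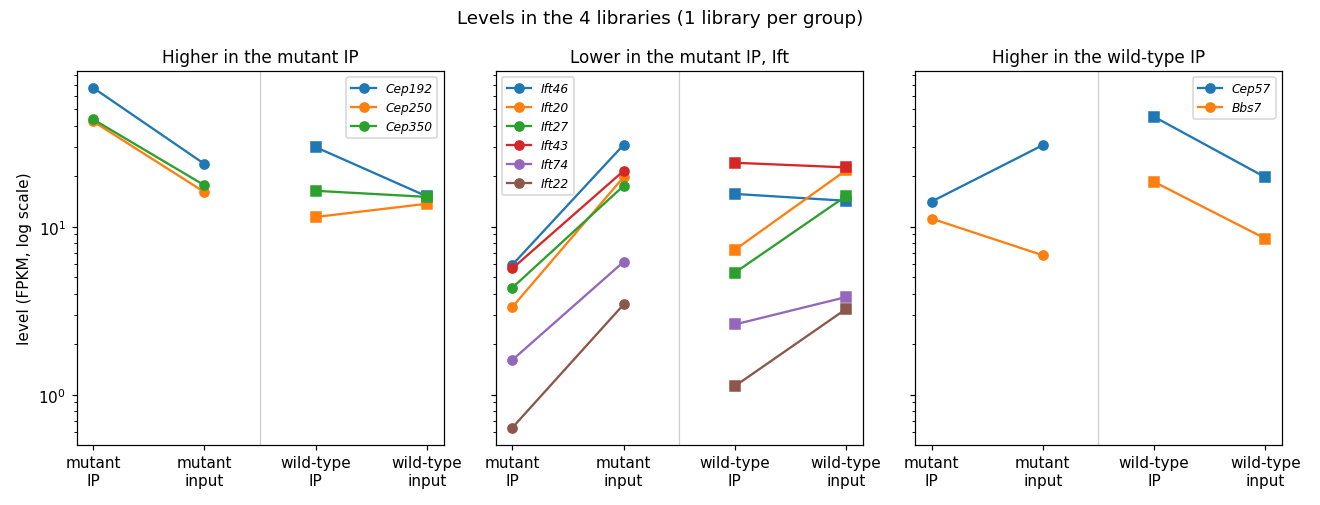
Level in FPKM (log scale) in each of the 4 libraries for Cep192, Cep250 and Cep350, for 6 Ift genes, and for Cep57 and Bbs7; lines join an IP to its own input, and each point is 1 library. The 6 Ift genes lie between 0.637 and 5.94 FPKM in the mutant IP, each below its level in the other libraries, and Cep57 is highest in the wild-type IP at 45.1 FPKM.

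The Ift genes held most of the low values. Of 14, 7 were lower in the mutant IP (32.5% over all protein-coding genes) and 3 in the wild-type IP (18.8%), and none was higher in either. The family medians were −0.82 in the mutant and −0.22 in the wild type; relative to all protein-coding genes they were −0.33 and 0.02, so the wild-type sign turned. The 11 IFT-B genes contributed 6 of the 7 lower genes in the mutant and all 3 in the wild type.

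Ift20, Ift22 and Ift27 were lower with both constructs, a combination shown by 13.3% of protein-coding genes. The wild-type call of Ift22 was lost narrowly with a pseudocount of 1, at −0.996. Ift20, whose product links the Golgi to the cilium, stood at 3.33 FPKM in mutant IP RNA and 19.8 in mutant input RNA, against 7.29 in wild-type IP RNA and 21.7 in wild-type input RNA. It was 5.92-fold below input in the mutant, the lowest ratio of the set, and 2.97-fold below in the wild type. The Rab-like small GTPase gene Ift22 stood at 0.637 and 3.45 FPKM in mutant IP and input RNA, against 1.12 and 3.24 in wild-type IP and input RNA. Its log2 ratios were −2.42 and −1.52. Ift27, encoding another Rab-like GTPase of IFT-B, stood at 4.34 and 17.5 FPKM in mutant IP and input RNA, against 5.33 and 15.2 in wild-type IP and input RNA, ratios of −2.01 and −1.51. In these 3 genes the inputs of the constructs differed by at most 0.20 (log2), and in each the mutant IP held the lowest level of the 4 libraries.

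Ift46, Ift74 and Ift43 were lower with the mutant alone among the constructs. Ift46, an IFT-B core subunit, stood at 5.94 FPKM in mutant IP RNA and 30.8 in mutant input RNA, against 15.7 in wild-type IP RNA and 14.3 in wild-type input RNA. Its ratio was −2.37 in the mutant and 0.14 in the wild type, the widest gap of the set (−2.51). Here the mutant input stood above the wild-type input by 1.11 (log2) and the mutant IP below the wild-type IP by 1.40, so both libraries of a pair entered the gap. Ift43, an IFT-A subunit, stood at 5.65 and 21.5 FPKM in mutant IP and input RNA, against 24.0 and 22.6 in wild-type IP and input RNA. Its inputs were nearly equal, and the gap of −2.02 between the ratios lay in the IPs. Ift74, which with Ift81 forms the tubulin-binding module of IFT-B, stood at 1.61 and 6.18 FPKM in mutant IP and input RNA, against 2.62 and 3.81 in wild-type IP and input RNA. Its ratios were −1.93 and −0.54. Its partner Ift81 stood close to input, at −0.38 in the mutant and −0.08 in the wild type, so members of 1 protein module were not recovered alike.

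The remaining IFT genes were nearer to input. Ift57 lay at the threshold, with −1.02 in the mutant and −0.87 in the wild type, and its mutant call was lost relative to all protein-coding genes (−0.52) and with a pseudocount of 1 (−0.78). Ift172, the largest IFT-B protein, had the highest mutant ratio of the family, 0.88, with 11.2 FPKM in IP RNA and 6.08 in input RNA, and a wild-type ratio of −0.16, with 5.61 and 6.29. Ift88, a core subunit, had 0.06 in the mutant and the family's highest wild-type ratio, 0.82, from 2.82 FPKM in wild-type IP RNA and 1.60 in wild-type input RNA. Ift80 had 0.60 and 0.62, with a span that overlaps predicted genes on the same strand. The other IFT-A genes, Ift122 and Ift140, had −0.10 and 0.36 in the mutant and −0.03 and −0.28 in the wild type.

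The Bbs genes stood above input with the mutant in 4 of 7 cases, beside 31.2% of all protein-coding genes, and with the wild type in 6 of 7, beside 38.8%. Their medians were 0.04 in the mutant and 0.64 in the wild type. Bbs7, a BBSome core subunit, was the one called gene, higher in the wild type (6.85% over all protein-coding genes). It stood at 11.2 and 6.76 FPKM in mutant IP and input RNA, against 18.5 and 8.50 in wild-type IP and input RNA, ratios of 0.72 and 1.12. Its level in each IP was above that in its own input. Bbs4, another BBSome subunit, stood at 1.17 FPKM in mutant IP RNA and 1.64 in mutant input RNA, against 2.12 in wild-type IP RNA and 1.20 in wild-type input RNA. Bbs10, which helps to assemble the BBSome as a chaperonin-like protein, stood at 2.23 and 3.06 in mutant IP and input RNA, against 1.78 and 1.14 in wild-type IP and input RNA. For Bbs10 the mutant IP was above the wild-type IP, and its lower mutant ratio (−0.45, against 0.64 in the wild type) came with a mutant input 1.41 (log2) above the wild-type input. The other chaperonin-like gene, Bbs12, had 0.04 in the mutant and 0.73 in the wild type. Bbs5 had the lowest mutant ratio of the family, −0.65, and Bbs2 the lowest wild-type ratio, −0.36.

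Between constructs, the gap is the mutant ratio minus the wild-type ratio, and the levels of the constructs were normalised separately. The gap reached at least 2-fold upward in 3 genes (5.72% over all protein-coding genes): Cep250 with 1.66, Cep350 with 1.18 and Ift172 with 1.05. It reached at least 2-fold downward in 7 genes (22.1% over all protein-coding genes): Ift46, Cep57, Ift43, Ift74, Bbs4, Bbs10 and Cep19, from −2.51 to −1.01, and Ift20 lay just outside at −0.99. The median gap was 0.15 for Cep, −0.42 for Ift and −0.69 for Bbs genes, against −0.27 over all protein-coding genes. The mutant ratio was the greater in 22 of 34 Cep genes (64.7%), in 2 of 14 Ift genes (14.3%) and in 2 of 7 Bbs genes, against 38.0% of all protein-coding genes. Among the 7 downward genes the mutant input exceeded the wild-type input in 6, all except Ift43, as it did in 43 of all 55 genes (78.2%) and in 53.2% of all protein-coding genes. The part of the inputs in these gaps was not tested.

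The number in a Cep or Ift symbol was given after the apparent mass of the protein in many cases, and recovery with the mutant followed it. Cep57l1, Cep170b and Cep295nl entered with the number of the gene they are named after, which need not reflect their own mass. Among Ift genes the Spearman rho of that number with the mutant ratio was 0.90 (n = 14), and with the wild-type ratio 0.49. Among Cep genes it was 0.50 with the mutant ratio and −0.21 with the wild-type ratio (n = 34). With the gap between constructs it was 0.72 for Ift and 0.69 for Cep genes. All 9 genes that were lower in the mutant IP had a number under 100 (28 Cep and Ift genes in all), and the 3 that were higher had a number above it (20 genes). Over all protein-coding genes 32.5% were lower and 5.71% higher in the mutant IP. The 9 of 28 were thus close to the share of lower genes over all protein-coding genes, and 0 of the 20 were lower. The median mutant ratio was −0.50 for numbers under 100 and 0.06 for the others, whereas the wild-type medians were −0.12 and −0.21; over all protein-coding genes the medians were −0.49 in the mutant and −0.25 in the wild type. The points share their libraries, and the relation was noticed in these data. The number also moved with gene span (rho 0.44, n = 48). Span alone had a rho with the mutant ratio of 0.70 for Ift and 0.21 for Cep genes, and its part in the relation was not tested.

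**Figure D3:**
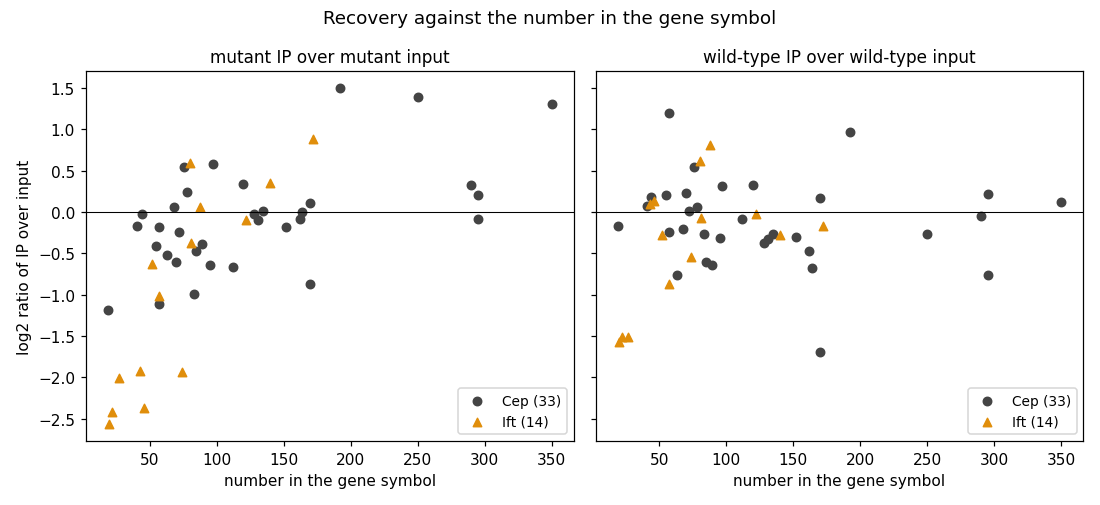
Log2 ratio of IP over input (vertical axis) against the number in the gene symbol (horizontal axis) for 33 of the 34 Cep genes (circles) and 14 Ift genes (triangles), with the mutant on the left and the wild type on the right. Ift genes with low numbers lie lowest and Cep192, Cep250 and Cep350 highest in the mutant, and the Cep points show no upward course in the wild type (rho −0.21 over all 34).

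Gene span gives the same set another order. The 5 members with spans up to 10 kb had medians of −1.18 in the mutant and −0.17 in the wild type, against −1.44 and −0.79 for the 2752 protein-coding genes of that class. The 14 members of 10 to 30 kb had −0.32 and 0.04, against −0.63 and −0.32 for 3834 genes. The 15 members of 30 to 60 kb had 0.01 and −0.16, against −0.13 and 0.0015 for 2187 genes. The 6 members over 100 kb had 0.29 and 0.02, against 0.25 and 0.07 for 1338 genes. In these 4 classes the members' mutant median lay above that of the class. From 60 to 100 kb, a class that holds Ift43 and Ift74, it lay below, with −0.08 for 15 members against 0.12 for 1149 genes. The wild-type medians there were −0.08 and 0.11, and the members' wild-type median lay below that of the class in the 3 classes over 30 kb and above it in the other two.

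The deposited peaks mark where along a gene recovered RNA piled up. Each peak was given to a gene where its summit lay in the gene's span on the gene's strand, and no such summit lay in a second gene of that strand. Of the 55 genes, 9 carried at least 1 mutant peak (21.9% over all protein-coding genes) and 10 a wild-type peak (29.4%), 3 carried both kinds and 39 carried none. The mutant list held 98 peaks in these genes, out of 15931 in all, and the wild-type list 32, out of 11912. Peak folds are the authors' own values, with medians of 5.06 for the mutant and 4.90 for the wild-type peaks of the set. Of the 98 mutant peaks, 88 lay in Cep192, Cep350 and Cep250 (89.8%), the 3 genes of the set with most mutant peaks. The other 52 genes held 10 mutant and 17 wild-type peaks. At least 10 mutant peaks were carried by these 3 genes and by 3.61% of protein-coding genes, and at least 10 wild-type peaks by Cep192 and by 1.77%.

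Cep192 carried 36 mutant and 15 wild-type peaks, spread from 2.87 kb to 84.6 kb downstream of the gene start, over a span of 85.1 kb. The 15 wild-type peaks each met a peak of the mutant list, which had 15 of its 36 in such overlaps. Peak folds in this gene ran from 2.91 to 12.8 in the mutant list and from 2.74 to 8.07 in the wild-type list. Cep350 carried 29 mutant peaks between 19.9 and 128.0 kb from its start, with folds up to 12.4, and Cep250 carried 23 between 5.50 and 42.2 kb, with folds up to 10.1. In both genes the wild-type list held no peak. The strongest of these lay at chr1:155871959-155872204 in Cep350 and chr2:155983144-155983393 in Cep250, in the coordinates of the files (GRCm38 per the submitters' processing notes). Exon models were not used here, so a peak's place in an exon, intron or untranslated region is not given.

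The wild-type peaks outside Cep192 were few. Cep57 carried 4 wild-type peaks, with folds of 3.11 to 7.13 between 8.08 and 18.3 kb from its start, and no mutant peak. Bbs7 carried 4 wild-type peaks, with folds of 2.91 to 6.22, and no mutant peak, although it stood above input in the mutant as well. Cep170 carried 3 wild-type peaks, all in the last 10% of its span, and no mutant peak. Single wild-type peaks lay in Cep44, Cep55, Cep76, Cep295, Ift80 and Ift81. The other mutant peaks lay in Cep97 (3), Cep295 (2), Ift172 (2), Cep76, Cep120 and Cep290 (1 each). Cep76 and Cep295 carried peaks of both lists, but these did not overlap. All overlaps of the set thus lay in Cep192. Over all 55 genes 15.3% of mutant peaks (interval 8.83 to 24.0) and 46.9% of wild-type peaks (interval 29.1 to 65.3) met a peak of the other list, beside 36.2% and 49.6% in the whole lists. Intervals are exact Clopper-Pearson intervals at 95% and cover counting error alone, and peaks of 1 gene are not independent.

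Genes with a peak stood at higher median levels than those without, with overlapping ranges. The 9 genes with a mutant peak had a median mutant IP level of 11.2 FPKM, against 4.93 for the 46 without, and the 10 with a wild-type peak had a median wild-type IP level of 16.2 FPKM, against 4.59 for the 45 without. With either construct the genes with a peak thus had the higher median level. None of the 10 genes called lower in at least 1 IP carried a peak of that IP, Cep170b at 45.9 FPKM in wild-type input RNA included. Over all protein-coding genes 21.9% carried a mutant peak and 29.4% a wild-type peak. The shares among all genes called lower were not computed. The peaks, levels and ratios of a construct share its IP library. These relations are therefore no separate evidence, and the part of the level in them was not tested. Cep97 at 2.02 FPKM in mutant IP RNA carried 3 mutant peaks, whereas Cep55 at 33.2 carried none. Mutant peaks of the set lay in the last 10% of the span in 12 of 98 cases (12.2%) and wild-type peaks in 9 of 32 (28.1%). Without Cep192, Cep250 and Cep350 these were 3 of 10 mutant peaks and 8 of 17 wild-type peaks (47.1%). The same share over all peaks in protein-coding genes was not computed, so these positions cannot be called particular to the set.

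**Figure D4:**
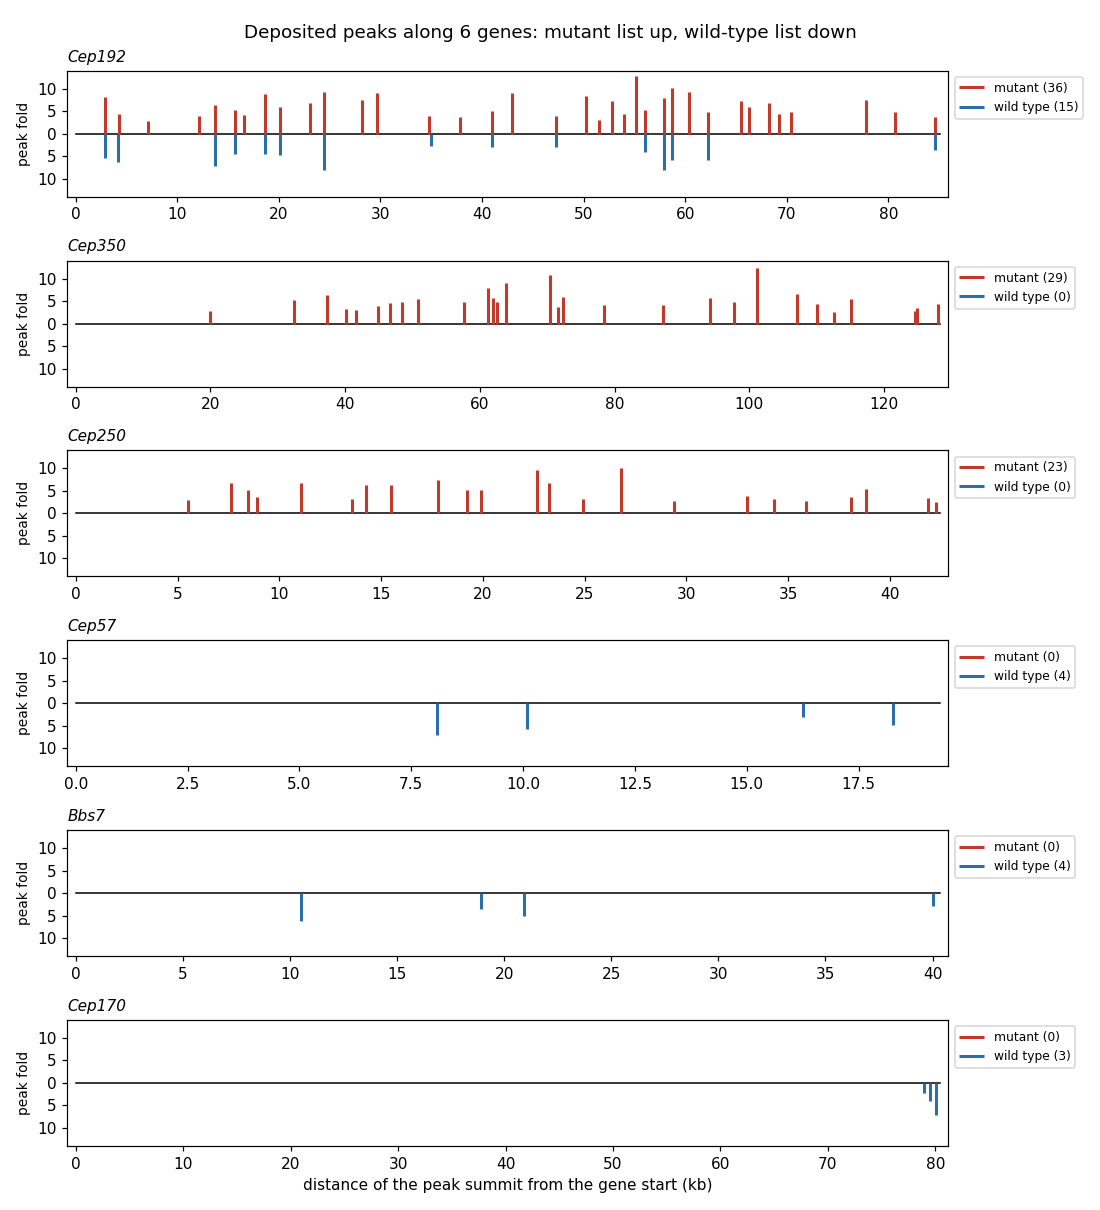
Authors' peak fold (vertical axis) at each peak summit along 6 genes, by distance from the gene start in kb (horizontal axis), with mutant peaks drawn upward and wild-type peaks downward; the number of peaks is in the legend. Cep192 has 36 mutant and 15 wild-type peaks, Cep350 and Cep250 have 29 and 23 mutant peaks and no wild-type peak, and Cep57, Bbs7 and Cep170 have wild-type peaks alone.

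A list of 87 symbols of other centrosome and cilium genes, which do not match Cep, Ift or Bbs, had 79 genes in both tables. Some symbols are alternative names of others on the list, so an unmatched symbol need not be an absent gene. In the mutant 8 of the 79 were higher and 13 lower, beside 5.71% and 32.5% over all protein-coding genes. In the wild type 5 were higher and 5 lower, beside 6.85% and 18.8%. The medians were −0.11 in the mutant and −0.0014 in the wild type, or 0.39 and 0.24 relative to all protein-coding genes. In the mutant the highest ratios belonged to Dync2h1, the heavy chain of the motor for return transport (2.19), Alms1 (1.69) and the augmin subunit gene Haus6 (1.42). The lowest belonged to Hspb11, which encodes the Ift27 partner also called IFT25 (−3.56), to the gamma-tubulin gene Tubg1 (−2.33) and to the small GTPase gene Arl3 (−2.22). Hspb11 stood at 1.08 FPKM in mutant IP RNA and 12.9 in mutant input RNA, against 19.8 in wild-type IP RNA and 17.5 in wild-type input RNA. In the wild type the highest were Arl6, the GTPase that recruits the BBSome to membranes (2.14), Ttc30a1 and Haus6 (1.21 each), and the lowest were B9d2 (−2.70), Tubg1 (−1.80) and Wdr34 (−1.32). Arl6 stood at 2.03 and 4.14 FPKM in mutant IP and input RNA, against 6.28 and 1.42 in wild-type IP and input RNA. Of the 79 genes, 26 carried a mutant peak (21.9% over all protein-coding genes) and 26 a wild-type peak (29.4%). They held 207 mutant and 74 wild-type peaks. The genes with the largest numbers of mutant peaks were Dync2h1 (54, with 10 wild-type peaks), Pcnt (22, with 0) and Pcm1 (18, with 7). Carrying many mutant peaks was thus not particular to Cep genes.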

How the data were processed

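RNA recovered with anti-Flag antibody and input RNA were sequenced from cells with mutant and wild-type Flag-Lin28b, with 1 library per group. MACS2 2.2.7.1, bedtools, HOMER 4.11.1 and HISAT2 2.1.0 are listed in the submitters' processing notes, with builds mm10 and GRCm38; their roles, the gene-level counter and its test are not given in the sources used here. The authors' deposited gene tables give 1 level per gene and library, read here as FPKM: column sums ran from 207301 to 321238, and in processed pseudogenes the evidence behind the authors' p-value per unit of level rose with length (Spearman rho 0.77 and 0.81 across genes). The deposited log2 ratio was recomputed to within 1.57e-09. The deposited p-value and q-value compare 2 libraries, and the q-value served as an alternative alone. In the deposited peak lists the fold ratio, the score, the −log10 p-value and q-value and the summit offset are the authors', with 1 list per IP and strands called apart per the peak names.

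Symbols were carried from the mutant table by gene identifier. Ratios, medians and counts were computed with Python 3.11.15, pandas 2.3.3 and scipy 1.17.1 and tested on simulated data. Named genes were those called, the extremes of each family, the 6 largest gaps each way, the 6 with most peaks per list and the 3 highest and lowest of the other list per construct; others, the symbol-number split, the motif search and the gap counts were chosen after values were seen. The members and lists were chosen with earlier results of these data known. Alternatives were a pseudocount of 1, centring, a level filter, a 3-fold threshold, an added q-value limit, stricter peaks and other overlap rules. Values of 1 Cep gene are not reported here; it is counted in the group counts and medians.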

Additional observations from a re-analysis of the deposited data

Results flagged for a closer look

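Cep57 was more than 2-fold lower in the mutant IP and more than 2-fold higher in the wild-type IP, with a mutant minus wild-type log2 ratio of −2.31. Relative to all protein-coding genes the mutant ratio was −0.62, under 2-fold. Each direction rests on 1 pair of libraries, and the difference was not tested.

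On the strand opposite to a member, 6 mutant peaks in Cep85, Cep192, Cep250 and Cep350 and 5 wild-type peaks in Cep85 and Cep290 had their summits inside the member's span, data that no comparison above uses. Of these, 1 mutant peak in Cep250 and 2 wild-type peaks in Cep290 lay in a listed gene of that strand.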

How the results depend on the processing

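Centring on all protein-coding genes turned the sign of 3 medians: 0.39 in the mutant, 0.17 in the wild type and 0.23 for the gap. With a pseudocount of 1 they were −0.081, −0.063 and −0.011. Centring gave 9 genes higher in the mutant IP, 5 higher in the wild-type IP and 5 with an upward gap. At 3-fold, 0 were higher in either IP, 1 was lower in the wild-type IP, and 1 gap was upward and 3 downward. A pseudocount of 1 left 4 downward gaps. Other counts stayed within 1.5 times. The level filter removed no gene. The authors' q-value limit changed no count. Stricter peaks, whole-peak and reciprocal overlap rules kept peak counts and shares in range. Of 110 single ratios, centring moved 12 across the threshold and a pseudocount of 1 moved 3. The alternatives for the gap counts were chosen after seeing the data. No paired analysis was possible because each group has 1 library. Depth is unknown, so counting error of the levels is not given.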

Other observations

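Genes near the rule but outside it had these values. Cep85l was listed in the mutant table alone, with 1.12 FPKM in IP RNA and 0.945 in input RNA. The gene annotated as Bardet-Biedl syndrome 1 was listed in the wild-type table alone, with 0.196 FPKM in IP RNA and 0.295 in input RNA. The noncoding RNA Cep83os, annotated as a bidirectional promoter transcript, stood at 0.187 FPKM in mutant IP RNA and 0.430 in mutant input RNA, against 0.287 in wild-type IP RNA and 0.209 in wild-type input RNA.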
